A study of Mus musculus with 2 samples.

Results

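Collagens are secreted or membrane-bound proteins whose chains wind around each other into a helix. The fibrillar collagens, of which types I and III are the most abundant in scar tissue, are assembled into fibres by fibroblasts. Type IV collagen forms the sheet-like network of basement membranes, where the chains of Col4a1 and Col4a2 make the widespread form and those of Col4a3, Col4a4 and Col4a5 make a second form found in the glomerulus and parts of the tubule. The members described here were all genes whose symbol was Col, a number, the letter a and a number. There were 44 of them among 32285 genes, comprising 11 fibrillar chains, 8 basement membrane chains (6 of type IV, plus Col15a1 and Col18a1) and 25 others. A UMI, the tag that marks a captured RNA molecule, was found for 43 of the 44 in both libraries, and Col9a1 had 1 UMI, in the control library.

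The cells came from mouse kidneys collected 14 days after the artery of 1 kidney had been clamped and released, with 4 tamoxifen injections after the injury in both groups. The control library was from mice labelled Cre-, and the haplodeficient library was from mice labelled Cdh5-CreERT2; Phd3f/+, in which a tamoxifen-activated Cre under the promoter of the endothelial cadherin gene Cdh5 acts on a floxed allele of Phd3. Whether the Cre- mice carried a floxed allele, and how many animals and of what age went into each library, was not stated in the labels. Each group was 1 library; differences between them therefore have no replicate check, no test between them was possible, and every interval below is a 95% interval for counting error only.

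After filtering, 8737 cells of the control library remained (medians of 8762 UMIs and 10.2% mitochondrial UMIs), beside 9222 of the haplodeficient library (5471.5 UMIs and 2.69%). Of their barcodes, 28 occurred in both libraries. Collagens had 112875 and 125377 UMIs. Levels are given as CPM, a gene's UMIs as a share of all UMIs of the same cells and library on the usual CPM scale. Egln3, the gene of PHD3, was at 33.7 CPM (24.3 to 45.6) in endothelial-like cells of the control library and at 26.3 CPM (21.3 to 32.1) in those of the haplodeficient library; the floxed part was not given, so a 3′-end count may lie outside it. Cells were grouped with all collagens left out, into 35 clusters. Marker genes that included no collagen named 17 classes, and 7 clusters, holding 14.99% of control and 19.5% of haplodeficient cells, stayed unnamed. Proximal tubule-like cells made up 35.3% of the control library and 4.16% of the haplodeficient library, and neutrophil-like cells 1.18% and 6.69%.

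Before the levels, the upstream sequences of the members on which the description turns are shown. The type IV genes lie in pairs, head to head, in the mouse genome (GENCODE M21, GRCm38). On chromosome 8, Col4a1 (chr8:11198423-11312826, minus strand) and Col4a2 (chr8:11312805-11449287, plus strand) begin within each other, with 22 bases in common. On chromosome 1, 71 bases separate the first base of Col4a4 (chr1:82448423-82586849, minus strand) from that of Col4a3 (chr1:82586921-82722059, plus strand). On the X chromosome, 1308 bases separate Col4a6 (chrX:141165403-141474076, minus strand) from Col4a5 (chrX:141475385-141689234, plus strand). RefSeq upstream sequence (GRCm38.p6) was matched by symbol for 35 of the 44 collagens. The stretches before Col4a1 and Col4a2 overlap an exon of the partner gene and are not printed. The 71 shared bases and the stretches before Col4a6 and Col4a5 are printed because the levels of paired chains varied together across cell populations. The stretch before Col3a1 is printed because Col3a1 was high in fibroblast-like cells. The printed stretches read 5′ to 3′ on the gene's own strand (for the shared bases, that of Col4a4). Capitals mark a TATA box, a CCAAT box or a GC box, searched on both strands. The TATA box was spelled TATAAA. The CCAAT box was read by the letters of its name. The GC box was spelled GGGCGG, and no motif overlapped another in the printed stretches.
Col4a4 to Col4a3, chr1:82586850-82586920, minus strand: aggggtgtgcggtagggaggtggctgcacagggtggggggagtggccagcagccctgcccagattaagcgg
Col4a6, chrX:141474077-141474326, minus strand: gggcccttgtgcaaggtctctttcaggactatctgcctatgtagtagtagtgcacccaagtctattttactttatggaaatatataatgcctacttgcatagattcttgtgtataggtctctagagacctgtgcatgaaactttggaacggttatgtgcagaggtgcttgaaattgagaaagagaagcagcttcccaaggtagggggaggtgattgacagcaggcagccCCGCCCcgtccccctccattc
Col4a5, chrX:141475169-141475384, plus strand: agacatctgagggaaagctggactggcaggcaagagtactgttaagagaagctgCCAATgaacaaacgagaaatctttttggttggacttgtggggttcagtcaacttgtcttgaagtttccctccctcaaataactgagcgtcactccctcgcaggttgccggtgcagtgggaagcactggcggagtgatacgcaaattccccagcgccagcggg
Col3a1, chr1:45311288-45311537, plus strand: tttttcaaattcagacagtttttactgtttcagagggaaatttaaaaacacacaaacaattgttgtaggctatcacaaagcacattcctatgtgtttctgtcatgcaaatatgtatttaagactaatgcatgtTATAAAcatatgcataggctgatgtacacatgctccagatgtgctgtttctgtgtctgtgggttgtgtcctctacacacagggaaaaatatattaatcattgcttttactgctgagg

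The stretch before Col3a1 was 35.2% G or C and held a TATA box, while the 71 bases between Col4a4 and Col4a3 were 69.0% G or C and held none of the 3 motifs. Other collagens of fibroblast-like cells differed from Col3a1. The stretches before Col1a2 and Col5a1, not printed, were 62% and 76.4% G or C and held no TATA box. Over 250 bases, a TATA box occurred in 12.4% of 32851 promoters and in 5 of 38 collagen entries, a CCAAT box in 33.8% and in 13 of 38, and a GC box in 32.7% and in 22 of 38. In the 71 bases next to a start the shares of all promoters were 4.41% for the TATA box, 13.3% for the CCAAT box and 20.7% for the GC box, and in 216 bases, the length shown for Col4a5, they were 10.8%, 30.8% and 31.6%. These are matches of letters only.

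The levels divided the members into those held mainly by a small class and those spread over most of the kidney. A population is a named class or an unnamed cluster, and a member was eligible in it when the 2 libraries averaged 50 CPM or more and jointly had 30 UMIs or more. By this rule 25 collagens were eligible in at least 1 population, and 19 in none. The 3′-end UMIs were not scaled by transcript length, and all levels below are CPM on that scale.

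**Figure D1:**
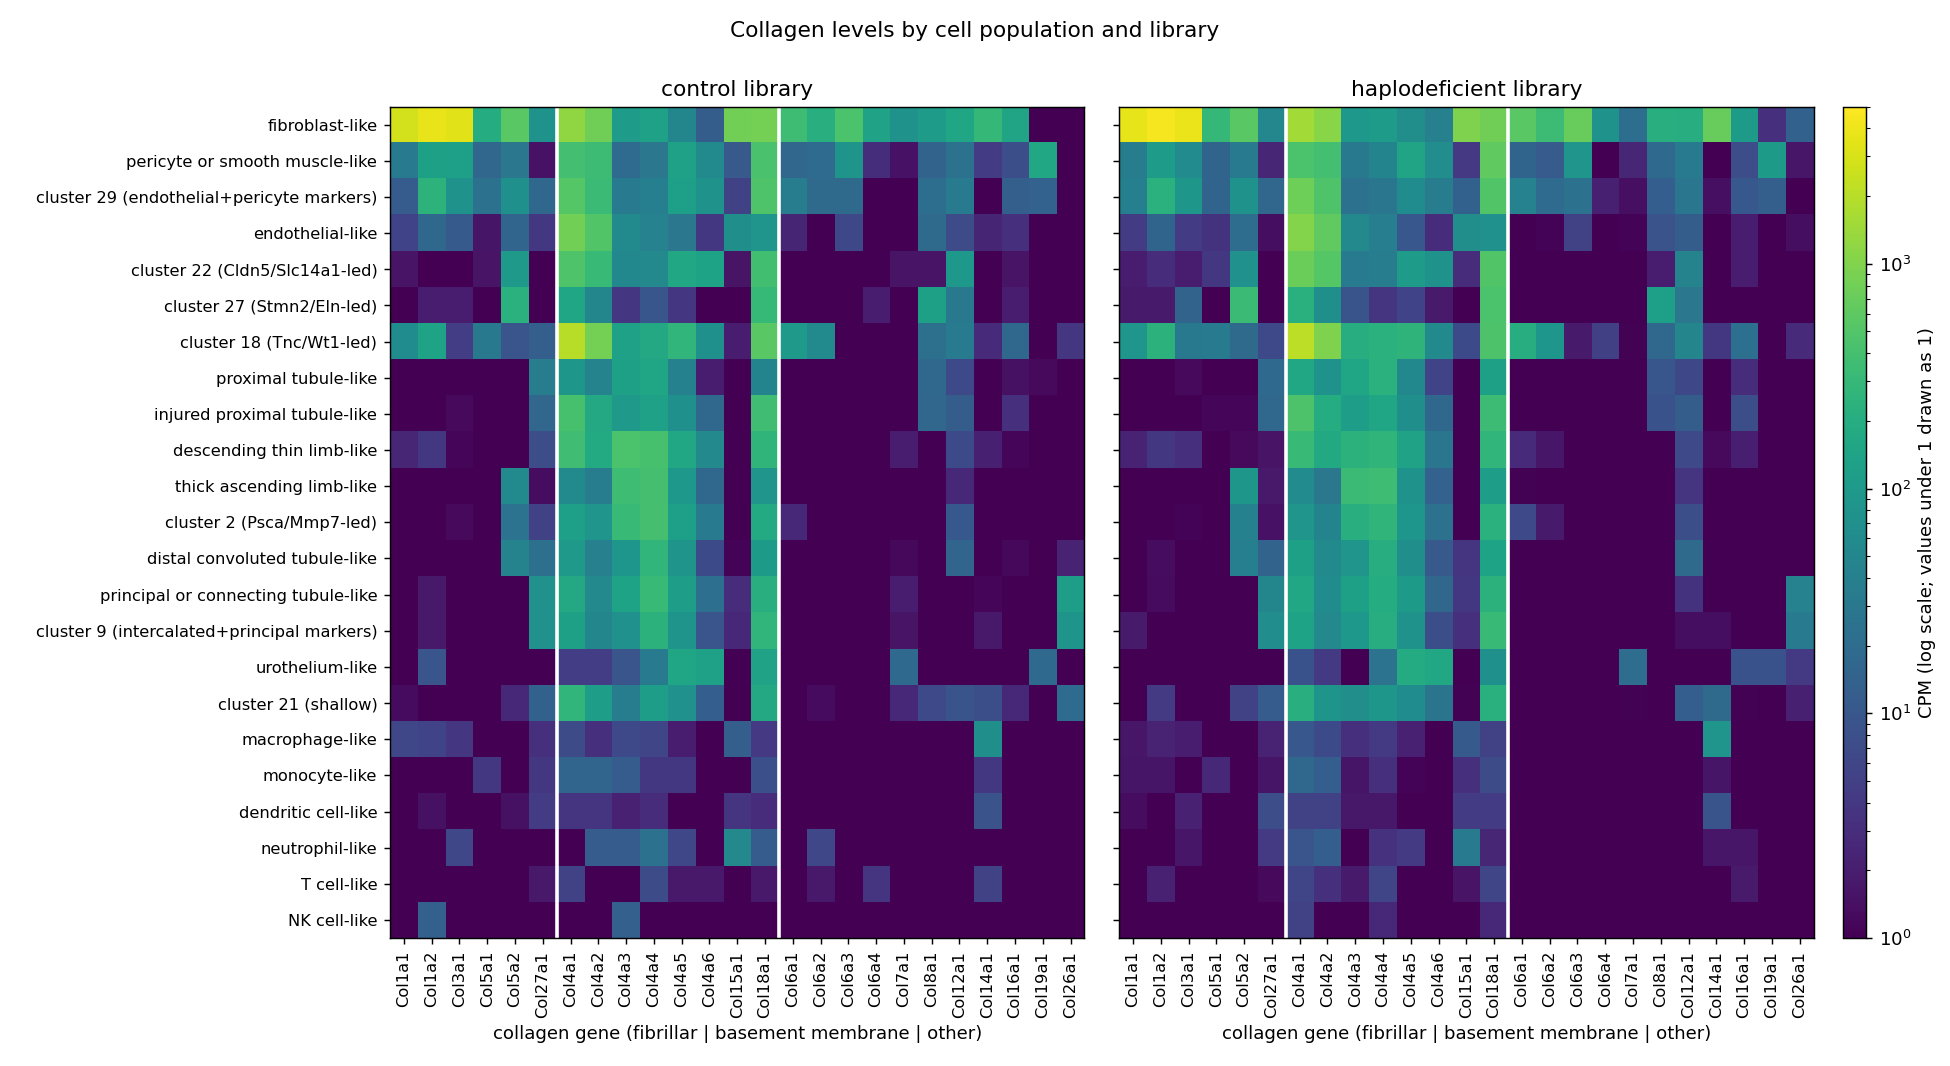
CPM (colour, log scale) of the 25 eligible collagens (columns) in each cell population (rows) of the control and haplodeficient libraries, with white lines between fibrillar, basement membrane and other collagens. Fibroblast-like cells are bright for Col1a1, Col1a2 and Col3a1 in both panels, whereas Col4a1, Col4a3, Col4a4 and Col18a1 are bright across the tubule populations.

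Fibroblast-like cells, cluster 23, passed 12 of 15 fibroblast markers and held 110 control and 120 haplodeficient cells, that is 1.26% and 1.30% of cells. The class also passed 5 of 11 podocyte markers, and its macrophage markers summed to 1917 and 1416 CPM. It carried 89.2% (control) and 86.4% (haplodeficient) of all UMIs of Col1a1, the main chain of type I collagen (chr11:94936224-94953042, plus strand). For Col3a1, the chain of type III collagen (chr1:45311538-45349706, plus strand), the shares were 89.5% and 89.0%. For Col1a2, the partner chain of Col1a1 (chr6:4504814-4541544, plus strand), they were 79.6% and 72.1%. Type I and III transcripts thus came mostly from this small class in either library.

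Within fibroblast-like cells Col1a2 was at 3777 CPM (control) and 4390 CPM (haplodeficient). Col3a1 was at 3457 and 3901 CPM, and Col1a1 at 2764 and 3628 CPM. Each of the 3 was higher in the haplodeficient library, by 1.16 times for Col1a2 (1.10 to 1.23), 1.13 times for Col3a1 (1.07 to 1.19) and 1.31 times for Col1a1 (1.24 to 1.39). The median cell had 7440 CPM of the 3 chains together in the control library and 9049 CPM in the haplodeficient library, and 0% and 0.833% of cells had no UMI of any. Thinned to 1000 UMIs a cell, 87.3% of control and 89.9% of haplodeficient fibroblast-like cells had a Col3a1 UMI (97.3% and 97.5% unthinned, with 0 and 1 cells too shallow to thin), against 0.519% and 0.418% of macrophage-like cells (4 and 5 cells left out), a class taken as lacking the gene. The medians of UMIs per cell were 4592.5 and 6367.5 for the fibroblast-like class, and for macrophage-like cells they were 5088.5 and 6223.5.

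Among the minor fibrillar chains, Col5a1, a type V chain that joins type I fibrils, was at 195 and 290 CPM in fibroblast-like cells, which held 57.1% and 55.2% of its UMIs. Its partner Col5a2 (chr1:45374321-45503282, minus strand) was at 565 and 569 CPM there, but these were only 18.8% and 17.8% of its UMIs. Thick ascending limb-like cells had 32.7% and 44.0% of the Col5a2 UMIs, at 58.4 and 90.2 CPM, with 565 and 1288 UMIs of Col5a2 beside 3 and 8 of Col5a1. An unnamed cluster led by Stmn2, Eln and Fbln5, which passed 12 of 14 endothelial markers, had 231 and 333 CPM of Col5a2 and no UMI of Col5a1. Col27a1, a fibrillar chain known from cartilage, was at 74.6 and 65.7 CPM in an unnamed cluster that passed all 11 intercalated and all 11 principal cell markers, and at 76.5 and 51.4 CPM in fibroblast-like cells. That cluster also held 84.5% and 87.4% of the few UMIs of Col24a1, at 27.5 and 42.4 CPM.

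Partly because of these tubular chains, fibroblast-like and pericyte- or smooth-muscle-like cells together held 53.1% (52.2 to 54.0) of all fibrillar UMIs in the control library and 63.9% (63.2 to 64.6) in the haplodeficient library. For Col1a1, Col1a2 and Col3a1 alone these shares were 88.2% (87.4 to 89.0) and 83.1% (82.5 to 83.8). Of the control Col27a1 UMIs the largest part, 43.5%, lay in proximal tubule-like cells. In the haplodeficient library it was 44.0%, in the cluster with intercalated and principal cell markers. The proximal tubule-like class was 35.3% of control but 4.16% of haplodeficient cells. Shares of UMIs follow such class sizes, so those of the 2 libraries cannot be compared as levels.

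Pericyte- or smooth-muscle-like cells (192 and 270 cells, with 14 of 15 markers passed) carried little fibrillar collagen. Col1a2 was at 128 and 110 CPM, Col3a1 at 124 and 60.8 CPM, and Col1a1 at 35.1 and 37.4 CPM. No UMI of Col1a1, Col1a2 or Col3a1 was found in 63.0% and 61.9% of the cells, and 66.5% and 56.8% of those UMIs lay in the 20 and 27 cells with most. Of the 15 fibroblast markers, 9 were detected in the class, at 409 and 381 summed CPM against 6874 and 6429 CPM in fibroblast-like cells, and Dcn, Lum and Dpt were at 0; the part of other cells in these fibrillar UMIs was not tested.

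**Figure D2:**
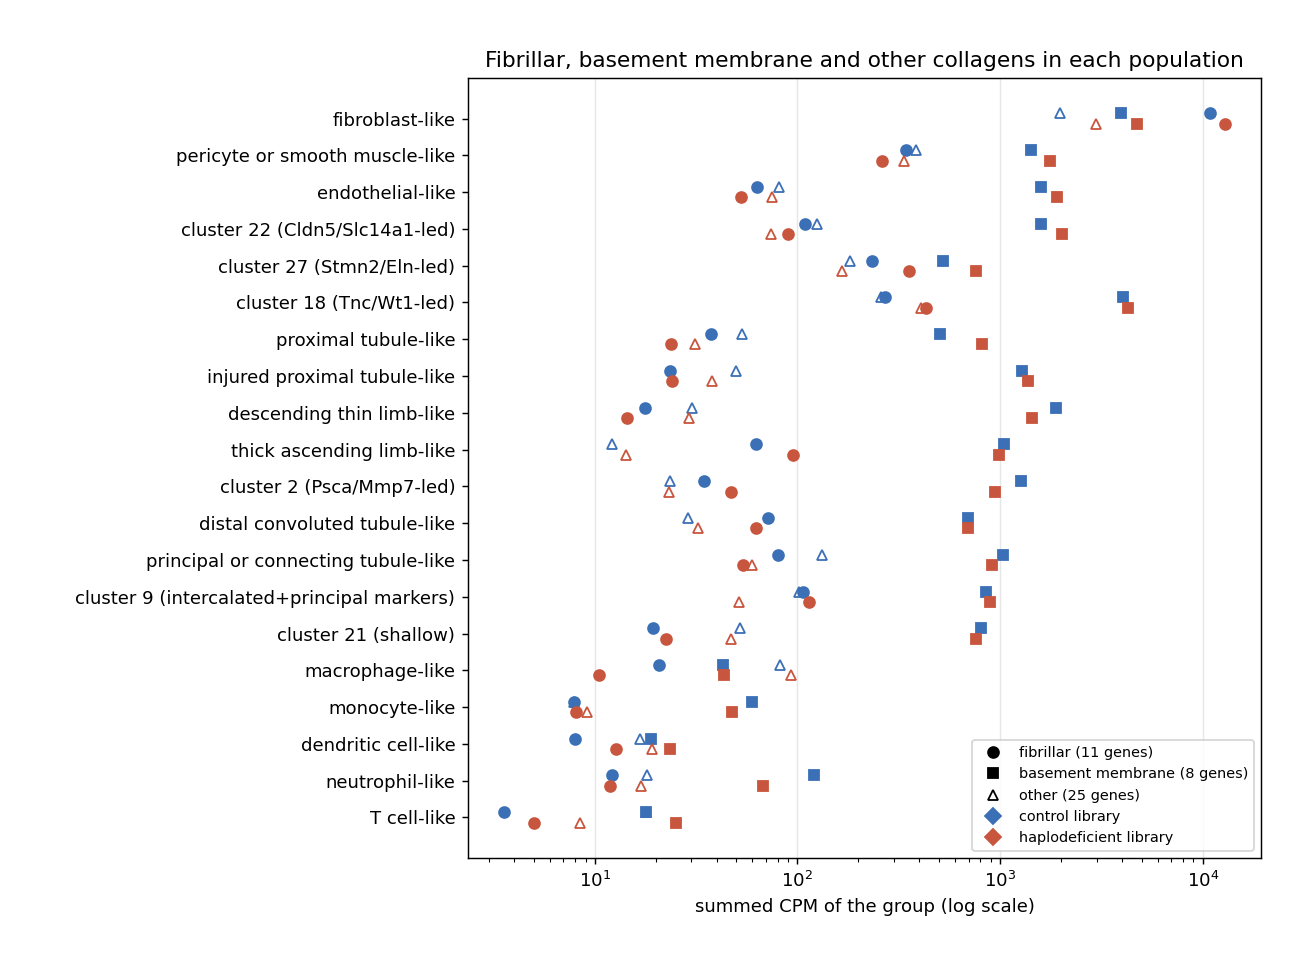
Summed CPM (log scale) of the 11 fibrillar (circles), 8 basement membrane (squares) and 25 other collagens (open triangles) in the 20 populations with at least 50 cells in each library. The fibrillar sum is the highest of the 3 in fibroblast-like cells, at 10908 (control) and 12876 CPM (haplodeficient), and the basement membrane sum is the highest in every other population except macrophage-like cells, where the other collagens are highest, and T-cell-like cells of the control library, where both are 17.8 CPM.

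Among the basement membrane chains, Col4a1 reached its highest level in an unnamed cluster whose leading genes included Tnc, Wt1 and Wnt16 and that passed 8 of 11 podocyte and 6 of 9 parietal epithelium markers. It had 1991 and 2108 CPM there, followed by fibroblast-like cells at 1208 and 1544 CPM and endothelial-like cells at 808 and 1023 CPM. In this cluster the pericyte or smooth muscle markers summed to 2810 and 6587 CPM. By the mean of the 2 libraries Col4a2 was highest in fibroblast-like cells, at 780 and 1115 CPM, followed by the Tnc- and Wt1-led cluster at 837 and 979 CPM, which was the higher of both in the control library. Endothelial-like cells had 499 and 629 CPM. Among the compared populations other than leukocytes, Col4a1 was lowest in thick ascending limb-like cells, at 57.4 and 60.8 CPM, and the few urothelium-like cells had 4.66 and 8.46 CPM. Free RNA, as estimated from markers of other cells, would amount to 13.5% and 16.7% of the thick ascending limb level.

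Col4a3 and Col4a4, whose chains are altered in Alport syndrome, followed the tubule instead. Col4a3 was highest in descending thin limb-like cells of the control library, at 447 CPM against 350 CPM in thick ascending limb-like cells, and in thick ascending limb-like cells of the haplodeficient library, at 333 CPM against 242 CPM. Col4a4 was at 405 and 354 CPM in thick ascending limb-like cells and at 420 and 260 CPM in descending thin limb-like cells, again with a different order in each library. In thick ascending limb-like cells both chains were thus above Col4a1, while in endothelial-like cells Col4a3 was at 58.6 and 55.3 CPM, below its Col4a1. Within endothelial-like cells Col4a3 was at 126 and 104 CPM in the Ehd3-led cluster, which also passed 7 of 11 podocyte markers, and at 20.1 and 25.01 CPM in the Plvap-led cluster. The part of podocyte RNA in the Col4a3 level was not tested.

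Col4a5, the third chain of the same network, was highest in the Tnc- and Wt1-led cluster, at 276 and 252 CPM. Col4a6, which pairs with Col4a5 in another form, was highest by the mean of the 2 libraries in urothelium-like cells, at 131 and 161 CPM, but these were only 18 and 25 cells. In the control library the level was higher in another population, with Col4a6 at 141 and 80.2 CPM in an unnamed cluster led by Cldn5 and Slc14a1 that passed 13 of 14 endothelial markers, whereas endothelial-like cells had 4.02 and 2.98 CPM. Slc14a1, a urea transporter, was at 582 and 343 CPM in that cluster.

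The chains of a head-to-head pair had similar profiles across the 20 populations compared. Spearman's rho of the mean CPM was 0.958 for Col4a1 with Col4a2, 0.925 for Col4a3 with Col4a4 and 0.892 for Col4a5 with Col4a6. Among pairs not head to head, it was 0.820 for Col4a1 with Col18a1, 0.811 for Col1a1 with Col1a2 and 0.642 for Col1a1 with Col3a1. It was 0.530 for Col6a1 with Col6a2, 0.442 for Col4a1 with Col4a3 and 0.376 for Col1a1 with Col15a1. Similar profiles were thus not particular to head-to-head pairs. These are descriptions over populations of the same libraries, which share depth and free RNA. The ratio within a pair was not fixed: there were 1.62 and 1.63 Col4a1 UMIs for each Col4a2 UMI in endothelial-like cells, 1.18 and 1.14 in pericyte- or smooth-muscle-like cells, and 3.09 and 2.59 in principal or connecting tubule-like cells. For Col4a3 over Col4a4 the ratio was 1.06 and 0.931 in descending thin limb-like cells and 0.441 (0.406 to 0.478) and 0.641 (0.588 to 0.698) in principal or connecting tubule-like cells.

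**Figure D3:**
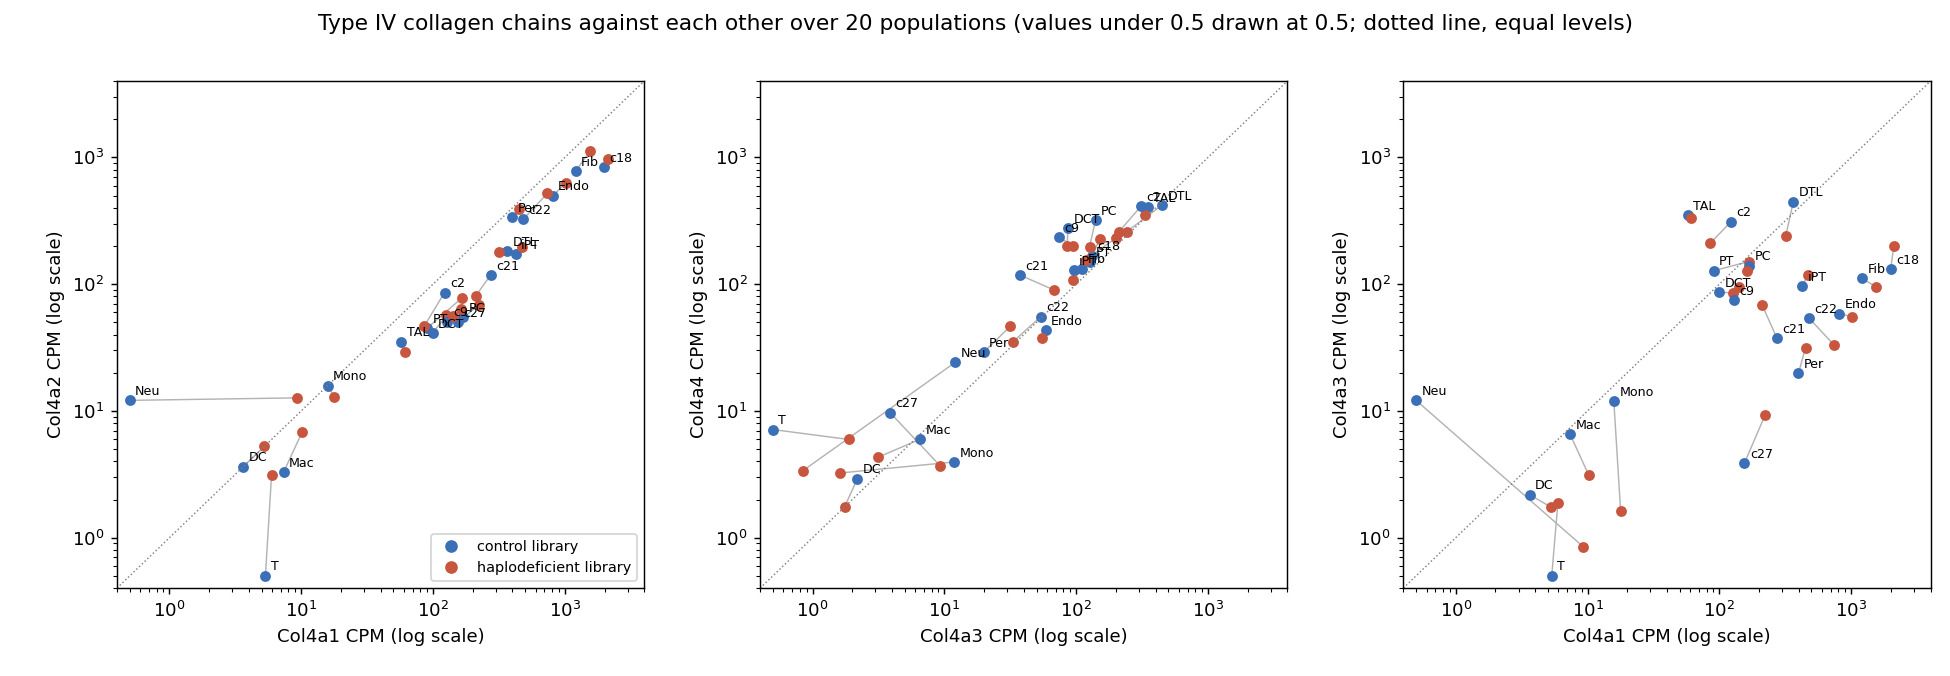
CPM of Col4a2 against Col4a1, Col4a4 against Col4a3, and Col4a3 against Col4a1 (log axes) in 20 populations of the control and haplodeficient libraries, with a grey line joining the libraries of a population and the dotted line marking equal levels. In the first panel most points run just below the dotted line and in the second near or above it, whereas in the third panel thick ascending limb-like cells (TAL) lie above it and endothelial-like cells (Endo) below it.

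The UMIs of the type IV chains together were spread over many populations, among them thick ascending limb-like cells with 12.1% and 15.9% and the Tnc- and Wt1-led cluster with 4.74% and 18.6%. In the control library proximal tubule-like cells held the largest shares of Col4a3 and Col4a4 UMIs, at 29.5% and 24.9%. In the haplodeficient library thick ascending limb-like cells did, at 36.7% and 30.6%. Endothelial-like cells held 2.34% (2.24 to 2.45) of type IV UMIs in the control library, as 2.47% of its cells, and 8.31% (8.12 to 8.50) in the haplodeficient library, as 6.09% of its cells. Pericyte- or smooth-muscle-like cells held 0.833% (0.770 to 0.900) and 1.74% (1.65 to 1.84), as 2.20% and 2.93% of cells. With likely doublets kept the endothelial-like shares were 1.07% and 4.51%. For Col4a1 and Col4a2 alone the endothelial-like share was 5.86% and 15.2%. These shares move with the number of cells of each class, which differed between the libraries.

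The multiplexins Col15a1 and Col18a1, basement membrane proteins that can release antiangiogenic fragments, differed in their reach. Col18a1 (chr10:77052178-77166548, minus strand) was eligible in 17 populations and was highest in fibroblast-like cells, at 833 and 783 CPM, with 561 and 466 CPM in the Tnc- and Wt1-led cluster and 428 and 629 CPM in pericyte- or smooth-muscle-like cells. Col15a1 (chr4:47208161-47313167, plus strand) was eligible in 2 populations, fibroblast-like cells at 806 and 978 CPM and endothelial-like cells at 69.9 and 67.3 CPM. In injured proximal tubule-like cells there were 3044 Col18a1 UMIs and 5 of Col15a1 in the control library, and 1452 and 2 in the haplodeficient library. For Col15a1 the libraries differed in opposite directions in the endothelial-like clusters. It was at 31.5 and 66.3 CPM in the Plvap-led cluster and at 137 and 68.8 CPM in the Ehd3-led cluster. In the Plvap-led cluster Col15a1 was not eligible, with 25 control UMIs and a mean of 48.9 CPM. The Ehd3-led cluster had 39 control cells, fewer than the minimum for comparing the libraries. Plvap was at 8.87 and 95.1 CPM in the Ehd3-led cluster, and Ehd3 at 2199 and 1481 CPM. The part of such differences in the Col15a1 levels was not tested.

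Of the other collagens, type VI, which forms beaded filaments around cells, had its highest levels in fibroblast-like cells. Col6a3 was at 450 and 685 CPM, Col6a1 at 349 and 557 CPM and Col6a2 at 205 and 340 CPM. The Tnc- and Wt1-led cluster had Col6a1 at 98.4 and 201 CPM and Col6a2 at 57.3 and 87.5 CPM, but 0 and 7 UMIs of Col6a3, the chain that completes the classical type VI molecule. In the haplodeficient library this cluster held more of the UMIs than fibroblast-like cells did, with 52.3% against 34.9% for Col6a1 and 45.1% against 42.3% for Col6a2. Pericyte- or smooth-muscle-like cells had the reverse, with 53 and 101 UMIs of Col6a3 beside 11 and 19 of Col6a1. Col6a4 was at 137 and 79.8 CPM in fibroblast-like cells, and Col6a6 was low everywhere, at 23.0 and 7.83 CPM in proximal tubule-like cells, which carried 92.7% (control) and 43.2% (haplodeficient) of its UMIs.

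The fibril-associated and short-chain collagens had varied locations. Col12a1 and Col16a1, which decorate fibrils, were highest in fibroblast-like cells, at 155 and 199 CPM and at 146 and 105 CPM. Col8a1, a short-chain collagen of vessel walls, was at 110 and 213 CPM in fibroblast-like cells and at 128 and 124 CPM in the Stmn2- and Eln-led cluster. Of its control UMIs, 64.4% lay in proximal tubule-like cells and 6.20% in fibroblast-like cells. In the haplodeficient library fibroblast-like cells held the largest share, 39.6%. Col19a1, a fibril-associated chain, was highest in pericyte- or smooth-muscle-like cells, at 163 and 103 CPM, which held 60.1% and 78.5% of its UMIs. Those UMIs came from 65 of 192 and 81 of 270 cells, and no control and 2 haplodeficient fibroblast-like cells had a UMI of it. Col14a1 was present outside the fibroblast-like class in macrophage-like cells, at 69.5 and 84.1 CPM, and these held 58.4% and 53.5% of its UMIs. Thinned to 1000 UMIs, 7.40% and 9.04% of macrophage-like cells had a Col14a1 UMI (27.8% and 36.5% unthinned), against 0% and 0.0981% of T-cell-like cells (0.565% and 0.0963% unthinned; 0 of 173 control cells allows a share of up to 1.73% by the limit of 3 counts, which is not one of the 95% intervals), whose median UMIs were 2709 and 2584.5. Col26a1 had its highest level in principal or connecting tubule-like cells.

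The 19 collagens that were eligible in no population included Col2a1, Col10a1 and Col11a1, known from cartilage, with at most 42 UMIs in either library. Col17a1, the hemidesmosome collagen of stratified epithelium, was highest in urothelium-like cells, at 42.0 and 50.8 CPM from 9 and 12 UMIs.

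To compare the libraries, a size rule was applied in the 20 populations with at least 50 cells in each. A gene passed when the log2 of haplodeficient over control, each with 5 CPM added, was at least 1 in size and the exact Poisson 95% intervals did not overlap. Over all eligible genes and populations, 2.25% of 68314 pairs passed. Of the 116 eligible pairs of a collagen and a population 5 passed, of which 2 were higher and 3 lower in the haplodeficient library, where the backgrounds were 0.87% and 1.38%. At 2.25%, between 2 and 3 of 116 pairs would pass, and nothing particular to collagens is read from a count of 5. All 15 fibrillar pairs stayed short of the rule.

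**Figure D4:**
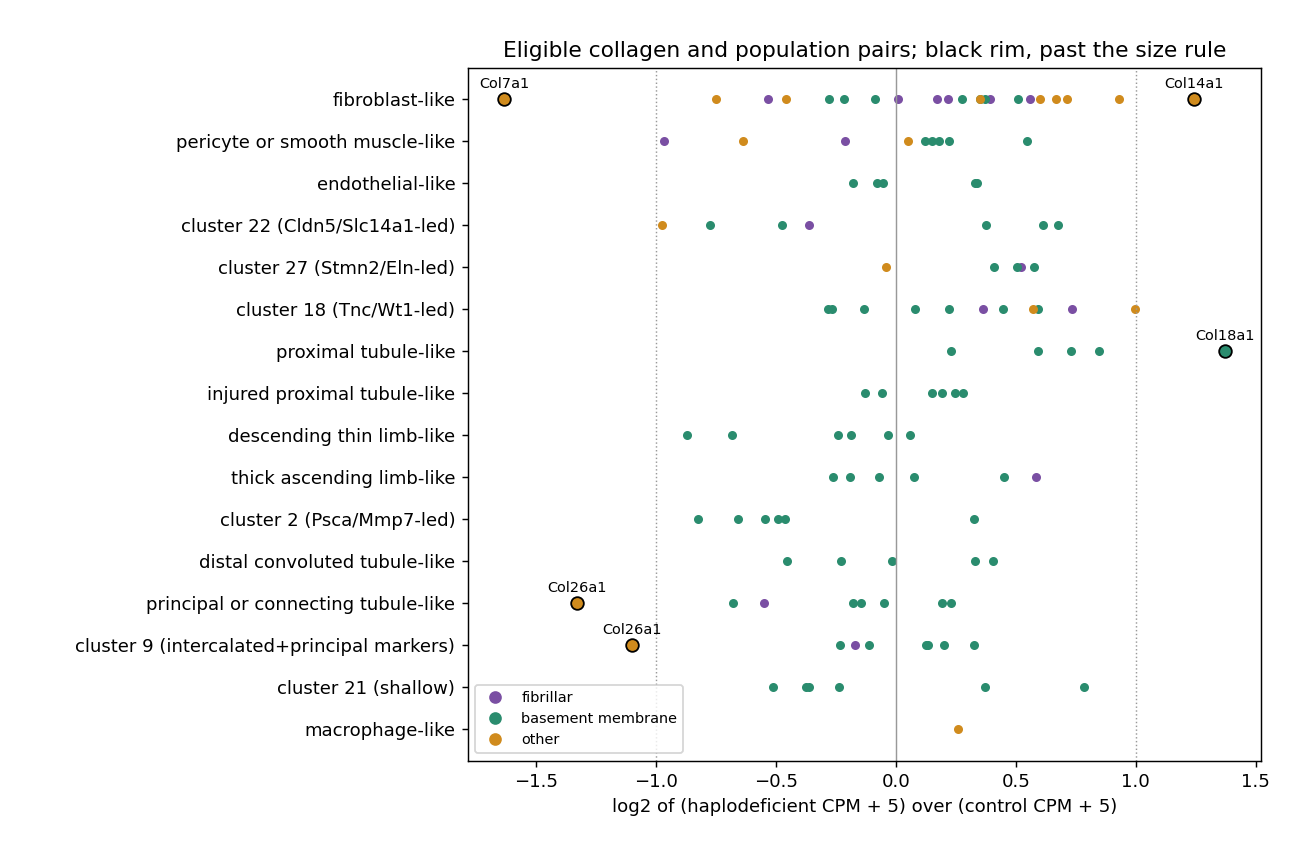
Log2 ratio (haplodeficient over control, 5 CPM added to each) of each of the 116 eligible collagen and population pairs, coloured by collagen group, with dotted lines at -1 and 1. The 5 points with a black rim passed the size rule. Among them are Col7a1 and Col14a1 in fibroblast-like cells and Col18a1 in proximal tubule-like cells. The others are Col26a1 in principal or connecting tubule-like cells and in the unnamed cluster with intercalated and principal cell markers.

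In fibroblast-like cells 2 of 22 eligible collagens passed, where 2.85% of 3406 genes did. Col14a1 (chr15:55307750-55520803, plus strand), a fibril-associated collagen that binds type I fibres, was higher in the haplodeficient library. Control cells had 294 CPM of it (251 to 342) and haplodeficient cells 702 CPM (648 to 758), a log2 ratio of 1.24 and a ratio of 2.39 (2.01 to 2.85). Its UMIs were found in 38 of 110 control cells, with 50.3% of them in 5 cells, and in 80 of 120 haplodeficient cells, with 25.7% in 5 cells. After thinning to 1000 UMIs, 19.1% (12.2 to 27.7) of control and 36.1% (27.5 to 45.4) of haplodeficient cells had a UMI, against 34.5% and 66.7% unthinned, and the intervals overlapped at equal depth. Col7a1 (chr9:108953586-108984875, plus strand), the anchoring-fibril collagen, was lower, at 78.2 CPM (57.1 to 105) and 21.9 CPM (13.3 to 33.8), a log2 ratio of -1.63. This rested on 45 and 20 UMIs, of which 21 and 8 lay in 5 cells. The call was lost under 3 alternatives: with likely doublets kept (log2 ratio -1.27), at most 25% mitochondrial UMIs (-1.59) and with median-of-ratios scaling (-1.65). In all 3 the log2 ratio stayed below -1. The mean Col7a1 level of the 2 libraries, 50.03 CPM, was barely above the minimum of 50 CPM for eligibility.

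Counted over all 22 eligible collagens of fibroblast-like cells, Col14a1 and Col7a1 included, 15 had a log2 ratio above 0. Of the 6 eligible fibrillar chains 5 were above 0, with a median of 0.20, against 0.03 over all 3406 genes, of which 52.6% lay above 0. The highest was Col5a1 at 0.56 and the lowest Col27a1 at -0.53. Of the 7 basement membrane chains 4 were above 0, with a median of 0.28, and of the 9 others 6 were above 0, with a median of 0.60. The 3 classical type VI chains had similar ratios, of 1.60 (1.35 to 1.89) for Col6a1, 1.66 (1.34 to 2.07) for Col6a2 and 1.52 (1.31 to 1.77) for Col6a3, while Col6a4 stood at 0.581 (0.417 to 0.809). Summed proximal tubule markers in this class were at 466 CPM in the control and 16.4 CPM in the haplodeficient library, and their part in these ratios was not tested.

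**Figure D5:**
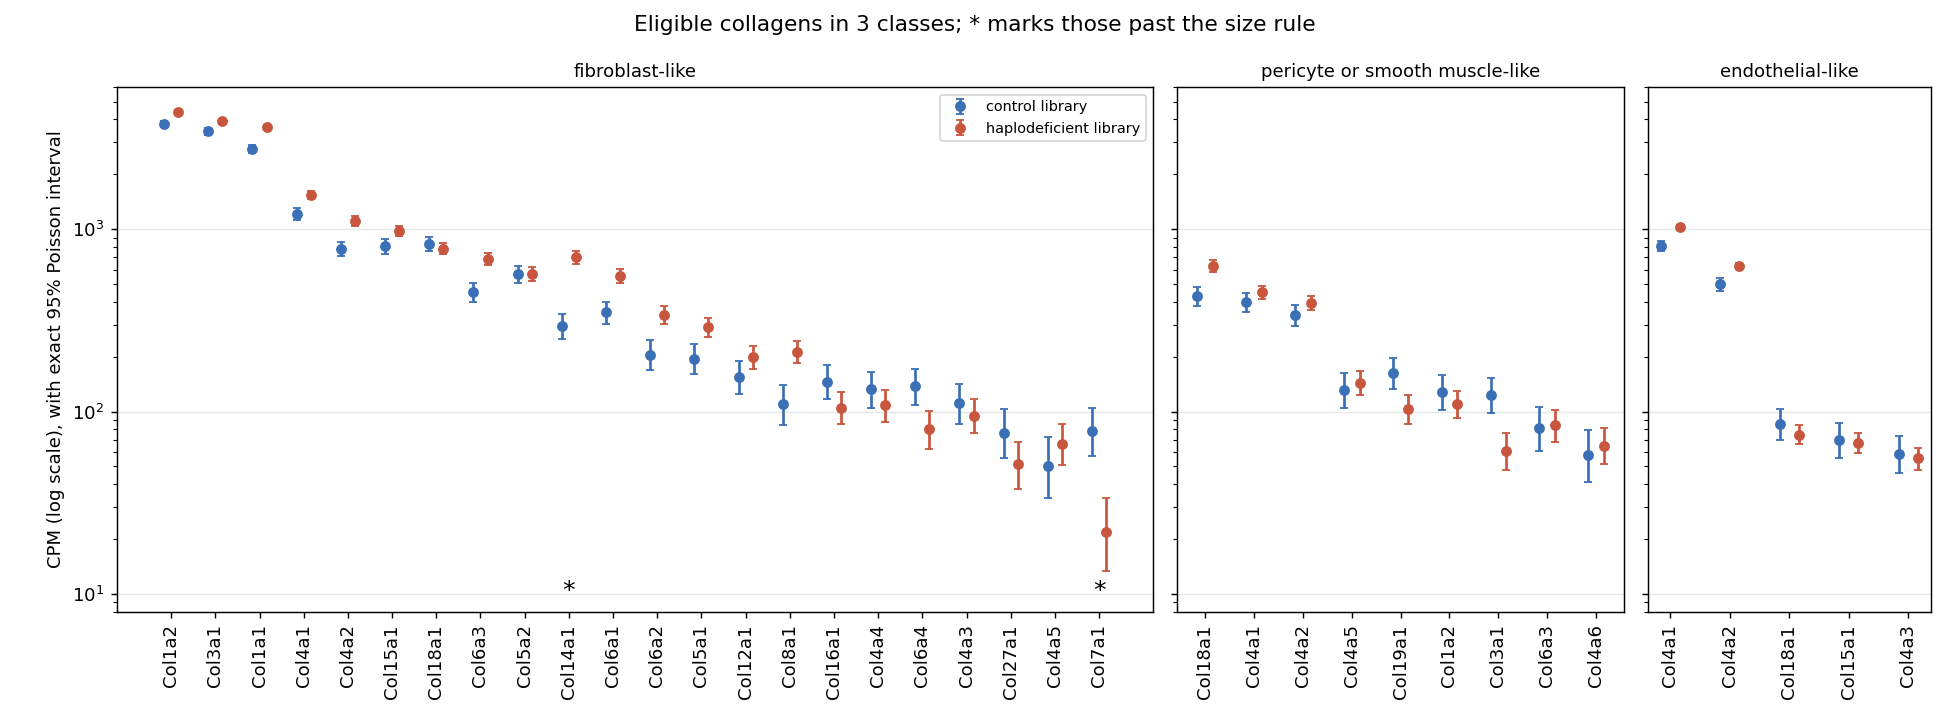
CPM (log scale) with exact 95% Poisson intervals of the eligible collagens in fibroblast-like, pericyte- or smooth-muscle-like and endothelial-like cells of both libraries, ordered by mean level. Stars mark Col14a1 and Col7a1 in fibroblast-like cells, and no collagen of the other panels passed the size rule.

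In pericyte- or smooth-muscle-like cells 0 of 9 eligible collagens passed, where 1.04% of 3280 genes did. The 3 highest were Col18a1 at 428 and 629 CPM (ratio 1.47, 1.28 to 1.69), Col4a1 at 398 and 451 CPM (1.13, 0.976 to 1.32) and Col4a2 at 339 and 395 CPM (1.17, 0.994 to 1.38). All 5 eligible basement membrane chains had a log2 ratio above 0, from 0.12 to 0.55 with a median of 0.18. Of all genes of this class 57.9% lay above 0, with a median of 0.07. The 2 eligible fibrillar chains were below 0, Col3a1 at -0.97 with a ratio of 0.492 (0.354 to 0.683) and Col1a2 at -0.21, giving a median of -0.59, which turned to 0.31 when each cell was named on its own markers. Dissociation stress genes summed to 16664 CPM in the control and 22791 CPM in the haplodeficient cells of this class, and their part was not tested.

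In endothelial-like cells, the class in which the Cre is driven, 0 of 5 eligible collagens passed, where 0.572% of 3844 genes did. Col4a1 was at 808 and 1023 CPM (ratio 1.27, 1.18 to 1.36), Col4a2 at 499 and 629 CPM (1.26, 1.15 to 1.38), and Col18a1 at 85.1 and 74.6 CPM (0.876, 0.698 to 1.11). The log2 ratios of the 5 ran from -0.18 to 0.34 with a median of -0.05, where all genes had a median of 0.00. The sign of this median varied with the cells counted as endothelial, and the eligible chains were chosen anew each time. It was 0.23 with likely doublets kept and 0.22 with each cell named on its own. It was 0.60 when the clusters led by Cldn5 and Slc14a1 and by Stmn2 and Eln were joined to the class. These clusters added 90 and 56 control cells to 216, and 156 and 75 haplodeficient cells to 562. The joined median may thus cover other chains and another mix of clusters. In the Cldn5- and Slc14a1-led cluster Col4a1 was at 481 and 739 CPM (1.54, 1.34 to 1.76) and Col4a6 at 141 and 80.2 CPM (0.570, 0.417 to 0.778). In the Plvap-led and Ehd3-led clusters taken singly, Col4a1 was 1.24 times (1.13 to 1.35) and 1.32 times (1.17 to 1.48) the control level. The Ehd3-led cluster had 39 control cells, fewer than the minimum for comparing the libraries. Its Plvap level was 8.87 CPM in control and 95.1 CPM in haplodeficient cells, and a part of cell make-up in its Col4a1 ratio was not tested.

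In the tubule, Col26a1 (chr5:136741759-136883209, minus strand), a small secreted collagen, was lower in the haplodeficient library in principal or connecting tubule-like cells, where 1 of 8 eligible collagens and 2.36% of 3734 genes passed. Its level was 118 CPM (110 to 127) in control cells against 44.2 CPM (39.4 to 49.4) in haplodeficient cells, a log2 ratio of -1.33 and a ratio of 0.373 (0.326 to 0.427). UMIs of it were in 246 of 508 control and 155 of 630 haplodeficient cells. In this class the 11 principal or connecting tubule markers summed to 7338 CPM in control and 4664 CPM in haplodeficient cells, and the 8 distal convoluted tubule markers to 1041 and 529 CPM; their part in this ratio was not tested. The cluster with intercalated and principal cell markers showed the same direction, at 81.0 CPM (75.5 to 86.7) and 35.1 CPM (31.5 to 39.1), a log2 ratio of -1.10, with 1 of 8 collagens and 1.25% of 3918 genes passing. Median UMIs per cell were 8351.5 and 7510.5 in the former population and 18013 and 22403 in the latter.

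In proximal tubule-like cells Col18a1 was higher in the haplodeficient library, as 1 of 5 eligible collagens, where 3.08% of 2983 genes passed. It was at 46.5 CPM (44.3 to 48.7) and 128 CPM (117 to 140), a log2 ratio of 1.37 and a ratio of 2.76 (2.50 to 3.04). All 5 eligible collagens of this class had a log2 ratio above 0, with a median of 0.73, but so did 72.5% of all its genes, whose median was 0.20. The class held 3082 control and 384 haplodeficient cells, with medians of 22.7% and 6.99% mitochondrial UMIs, and the size of the difference varied over its clusters. Col18a1 was 3.72 times (2.78 to 4.95) the control level in cluster 6, 2.29 times (2.03 to 2.57) in cluster 7 and 1.59 times (1.15 to 2.15) in cluster 4, and the intervals of the small clusters 19 and 31 held 1. In cluster 6 Col4a1 stood at 44.9 and 249 CPM and Col4a2 at 21.2 and 126 CPM. This cluster was shallow, with a median of 2628 UMIs per cell over both libraries. In free RNA, Col4a1 was at 118 and 211 CPM, Col4a2 at 55.6 and 123 CPM and Col18a1 at 103 and 173 CPM. The part of free RNA in the levels of cluster 6, including Col18a1 at 40.3 and 150 CPM, was not tested. In a further setting each cluster had the same weight in both libraries, namely the mean of its 2 cell shares. The log2 ratio of Col18a1 in the class was then 1.13, and without mitochondrial UMIs it was 1.19.

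Genes that serve collagen were read in the same way, from fixed lists. Of the 19 genes for chain modification and folding, 12 were eligible in fibroblast-like cells and 0 passed the size rule, where 2.85% of all genes did; their median log2 ratio was 0.34, against 0.03 over all genes. They included Serpinh1, the collagen chaperone, at 657 and 943 CPM, and Plod2, a lysyl hydroxylase, at 57.4 and 97.2 CPM. Of the 14 for procollagen processing and cross-linking 8 were eligible and 0 passed, with Pcolce, an enhancer of propeptide cleavage, at 216 and 331 CPM and Lox, a cross-linking oxidase, at 151 and 114 CPM. Of the 8 for collagen export 5 were eligible, of the 10 collagen-binding receptors 5, and of the 15 basement membrane partners of type IV collagen 6, and 0 passed in any. No member of these 5 lists passed in pericyte- or smooth-muscle-like or endothelial-like cells either. Summed over the list, chain modification and folding genes were at 2605 and 3343 CPM in fibroblast-like cells, 1119 and 1255 CPM in pericyte- or smooth-muscle-like cells and 1327 and 1404 CPM in endothelial-like cells.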

How the data were processed

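The deposited values were raw UMI counts for each gene in each barcode, from Cell Ranger 4 per the file headers, on build mm10 per the submitters' processing notes, covering all barcodes rather than called cells. The members and gene lists were chosen with earlier results of these data known. Barcodes with at least 500 UMIs, 200 genes and at most 50% mitochondrial UMIs were kept, and the highest Scrublet scores, 0.8% per 1000 cells, were removed as likely doublets. Both libraries were clustered together without collagens (scanpy 1.11.5, leidenalg 0.10.2; 2000 variable genes, 30 components, 15 neighbours, resolution 1). A name needed 3 markers detected in at least 10% of cells at 2-fold or more, a scoring chosen with the data in view. Clusters with more markers of another class among their 10 leading genes stayed unnamed. So did deep clusters that also passed most markers of another class, and a shallow cluster with no marker of its class among its leading genes. UMIs were summed per population and library and scaled to CPM, with exact Poisson, Clopper-Pearson or conditional binomial intervals. Free RNA was profiled in barcodes of up to 100 UMIs. The size rule was also run on simulated Poisson counts with planted changes. The simulation had no spread between cells or animals, so it cannot show how the calls fare under such spread. Named with values are every eligible collagen in its highest population, every pair that passed the size rule, the 3 highest collagens of the 3 vessel and stromal classes, and members of the other lists that passed in those classes; other values named in the text were chosen after they were seen. In GENCODE M21, 15 collagens overlap another gene on the same strand and 18 on the opposite strand, where reads may be shared. PCR and droplet losses are outside all intervals. The level of 1 marker gene is not reported here.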

Additional observations from a re-analysis of the deposited data

How the results depend on the processing

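Of 246 values over 20 results and 14 alternative settings, 203 were counted as unchanged. For shares and medians this meant staying within counting error, and for numbers of collagens within 1.5 times. For the ratio of a single collagen it meant the same direction and side of the rule. Of the rest, 36 moved beyond counting error or by over 1.5 times, 3 fell short of the rule and 4 changed sign. The cause was not tested. Of these settings, 2 were chosen after seeing the data. In 1, clusters 22 and 27 (led by Cldn5 and Slc14a1, and by Stmn2 and Eln) were joined to endothelial-like cells. In the other, each cluster had the same weight in both libraries. Eligible genes were chosen anew in each setting, so a median could cover other genes. The median log2 ratio of basement membrane collagens in endothelial-like cells, -0.05, became 0.23 with doublets kept, 0.22 with each cell named on its own and 0.60 with the 2 clusters joined. That of fibrillar collagens in pericyte- or smooth-muscle-like cells, -0.59 over 2 genes, became 0.31 with each cell named on its own and -0.065 with a minimum of 10 CPM. Col7a1 in fibroblast-like cells missed the rule at most 25% mitochondrial UMIs, with doublets kept and with median-of-ratios scaling, which left 1 of 2 collagens passing there. In pericyte- or smooth-muscle-like cells 1 collagen passed instead of 0 under those 3 settings, with each cell named on its own, without mitochondrial UMIs and with a pseudocount of 1 CPM. In endothelial-like cells 1 passed with each cell named on its own, and 2 with a minimum of 10 CPM or any gene with a UMI in both libraries. Over named classes, with 2 higher and 2 lower, 6 were higher and 4 lower with each cell named on its own, and 5 were lower with either of the looser minimums. The fibrillar share in fibroblast-like and pericyte- or smooth-muscle-like cells was 56.7% in the control library at most 25% mitochondrial UMIs, 52.2% (control) and 61.9% (haplodeficient) with each cell named on its own, 54.6% and 65.4% with free RNA subtracted, and 64.9% in the haplodeficient library with doublets kept. The type IV share of endothelial-like cells was 2.60% in the control library at most 25% mitochondrial UMIs, and in the 2 libraries 1.07% and 4.51% with doublets kept, 1.96% and 7.36% at resolution 2, 4.19% and 11.99% with each cell named on its own, and 3.49% and 10.5% with the clusters joined. That of pericyte- or smooth-muscle-like cells was 1.18% and 2.62% with doublets kept and 1.19% and 3.18% with each cell named on its own. Col14a1, Col18a1 and Col26a1 kept their calls in every alternative in which the population existed. No paired analysis was possible because each group had 1 library. Depth limits Col7a1, and counting intervals do not cover differences between animals.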
